A study of Caenorhabditis elegans with 2 samples.

Results

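FKH-10 is a forkhead transcription factor of the nematode Caenorhabditis elegans, and its binding in whole larvae was measured by ChIP-seq, in which DNA fragments held by the tagged protein are recovered and sequenced. The regions described here are the autosomal peaks that lay between protein-coding genes and away from their starts. They were chosen by location alone: the summit of the peak had to lie on chromosomes I to V, outside every protein-coding gene from its annotated start to its end, and more than 500 bp from the 5′ end of every protein-coding gene. In the authors' thresholded list 563 peaks met this rule (28.1%, Wilson 95% interval 26.2 to 30.1%) and 1442 did not. They made up 36.4% of the 1546 autosomal peaks (34.1 to 38.8%), while the sequence in which a summit could have met the rule was 28.1% of the autosomes. Location classes rest on Ensembl release 115 genes on the WBcel235 assembly, which has the coordinates of ce11, the build of the peak lists.

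Both samples were L3 larvae of strain OP337, labelled as biological replicates 1 and 2 and as mixed-sex whole animals. The strain carries the mutation unc-119(ed3) and the transgene wgIs377, which holds fkh-10 fused to TY1, EGFP and FLAG tags together with unc-119. Both samples share this genotype, the antibody target is given as fkh-10, and the labels do not name a promoter for the transgene or a number of insertions. There was 1 group of 2 samples, so no condition could be compared, and control libraries are not analysed here. The lists hold a signal value for each region and no read counts, so depth is unknown. Larvae were not separated into tissues, and binding in few cells and weak binding in many cannot be told apart.

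Forkhead factors bind DNA through a winged-helix domain, and many of them recognise a core related to GTAAACA. In the compact worm genome many regulatory elements lie close to gene starts, and those farther off sit in introns and in the longer gaps between genes, where enhancers, noncoding RNA genes and repeats share the sequence. A gap is divergent when both flanking genes start at it, tandem when 1 of them does, and convergent when both end at it. In worms many messenger RNAs also receive a leader by trans-splicing. SL2 leaders, supplied by the sls-2 family of small nuclear RNA genes, go mainly to downstream genes of operons.

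The strongest of the 563 peaks lay at genes for SL2 RNA. The sequences 50 bp on either side of the 5′ ends of sls-2.1 and sls-2.2 are shown to place the 2 strongest summits and to show how alike these 2 copies are. Capitals mark the RNA gene, lower case the sequence before it (plus strand, RefSeq WBcel235, chrII:5844815-5844915 and chrII:5543548-5543648).
sls-2.1: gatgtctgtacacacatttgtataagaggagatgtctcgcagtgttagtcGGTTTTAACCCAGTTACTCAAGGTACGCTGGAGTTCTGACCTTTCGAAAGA
sls-2.2: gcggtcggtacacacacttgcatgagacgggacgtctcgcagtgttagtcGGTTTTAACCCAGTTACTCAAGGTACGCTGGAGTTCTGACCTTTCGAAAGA
The windows had 92 of 101 bases in common (91.1%), and all the differences lay before the gene. Other sls-2 copies were not compared. Whether the authors kept reads that align to several such copies is not given in the labels or file headers.

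Among the letters that recurred at other summits were tracts of G and A (C and T on the other strand) and the 7-mer GAGACGC. The 7-mer CTCTCTC, such a tract, or GAGACGC was within 50 bp of 130 of the 563 summits (23.1%), so most summits held neither. The windows of 101 bp centred on 5 summits, picked for holding GAGACGC, are shown with GAGACGC, or GCGTCTC where it reads on the minus strand, in capitals (plus strand, RefSeq WBcel235). They lie at chrIV:14260857-14260957, chrII:6993050-6993150, chrIV:6956763-6956863, chrV:6227731-6227831 and chrV:20778336-20778436, in the order printed.
srab-24: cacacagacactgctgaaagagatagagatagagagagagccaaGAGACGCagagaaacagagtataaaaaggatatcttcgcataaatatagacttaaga
unc-104: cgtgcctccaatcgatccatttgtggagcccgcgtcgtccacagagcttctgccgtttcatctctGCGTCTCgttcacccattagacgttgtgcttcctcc
jnk-1: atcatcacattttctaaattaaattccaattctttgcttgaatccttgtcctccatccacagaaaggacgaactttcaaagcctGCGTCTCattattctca
W06H8.6: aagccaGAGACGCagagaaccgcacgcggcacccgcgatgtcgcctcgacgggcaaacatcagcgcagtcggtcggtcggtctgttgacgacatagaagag
hif-1: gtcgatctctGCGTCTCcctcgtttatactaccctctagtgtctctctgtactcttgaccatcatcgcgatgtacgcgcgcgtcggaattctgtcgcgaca
The srab-24 window also holds a run of alternating G and A before the 7-mer. 2 further windows hold the forkhead form GTAAACA, or TGTTTAC on the minus strand, in capitals, at chrV:10246512-10246612 and chrII:13071537-13071637.
akt-1: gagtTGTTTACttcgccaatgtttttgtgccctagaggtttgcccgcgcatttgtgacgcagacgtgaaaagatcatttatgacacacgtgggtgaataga
F42G4.5: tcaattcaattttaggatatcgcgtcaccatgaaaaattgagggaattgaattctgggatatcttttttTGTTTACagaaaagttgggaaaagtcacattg

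The strongest peak (chrII:5844651-5845014) had a signal value of 142 and its summit lay 32 bp from the 5′ end of sls-2.1, in a convergent gap of 633 bp between nep-25 and ZK1248.17. Its signal was 86.3 in replicate 1 and 58.4 in replicate 2, ranks 11 and 12 of the 30000 regions in each replicate's list. The second (chrII:5543382-5543745) had a signal of 119.5 and lay 34 bp from the 5′ end of sls-2.2, with 69.2 in replicate 1 and 49.02 in replicate 2. A weaker peak at sls-2.2 (signal 55.6) had its summit 203 bp from the second one and overlapped the same replicate regions. The tenth strongest peak (chrI:4171981-4172344, signal 87.1) lay 43 bp from the 5′ end of sls-2.4, with 60.8 in replicate 1 and 26.9 in replicate 2. The nearest protein-coding starts to these summits belonged to ZK1248.17, to the insulin-like gene ins-13 and to egg-5, a pseudophosphatase gene of the oocyte-to-embryo transition.

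Of the 18 sls-2 genes, which are all autosomal, 5 had a thresholded peak within 500 bp of their 5′ end and 3 had a peak of the intergenic class. Only 9 of the 18 lie where the location rule could be met, and 3 of these 9 carried a peak. The other 2 genes with a peak, sls-2.6 (signal 47.4) and sls-2.8 (signal 44.4), lie within 500 bp of a protein-coding start. None of the 12 sls-1 genes, which supply the SL1 leader and all lie where the rule could be met, had a thresholded peak or a pooled region. These 12 genes lie together at chrV:17118154-17132107, and most share 1 gene name. Whether reads that align to several copies were kept is not given, so a missing peak there cannot be read as missing binding. Of the 99 other small nuclear RNA genes 5 had a thresholded peak, and 2 of these carried an intergenic one, F38E11.11 (signal 40.3, 46 bp away) and F54D8.7 (signal 36.5, 115 bp away).

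**Figure D1:**
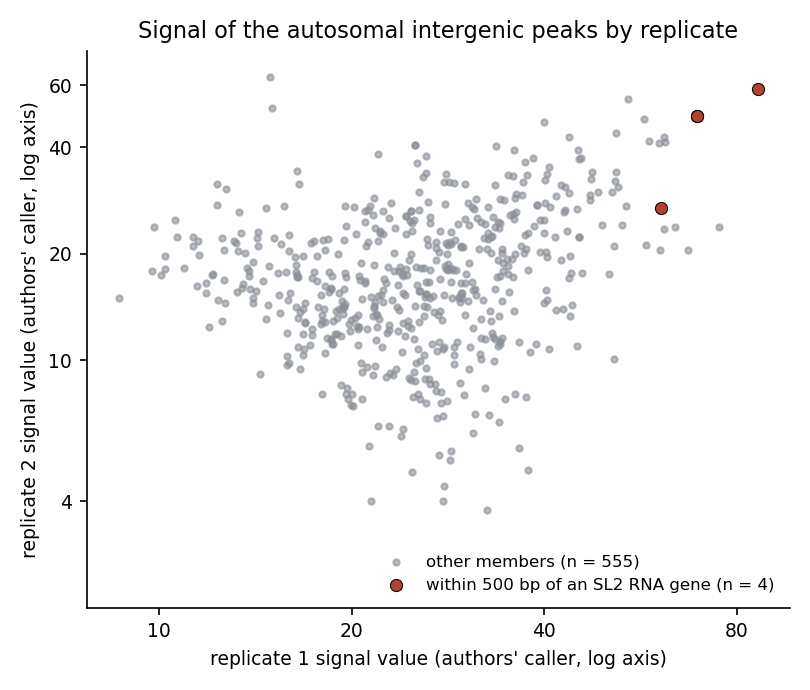
Signal value in replicate 1 (horizontal) and replicate 2 (vertical) of the 559 autosomal intergenic peaks found in both replicates' lists, both on log axes, 1 point per peak. The 4 peaks within 500 bp of an SL2 RNA gene (red, with the 2 at sls-2.2 on the same spot) lie at the upper right, while the cloud of the other 555 is broad.

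The remaining strong peaks lay near genes of many kinds. F02E9.5 (chrI:8426675-8427038) had a signal of 110.5, tag-340 (chrIII:4899723-4900086) 109.3 and ogt-1 (chrIII:7155649-7156012), the gene for O-GlcNAc transferase, 102.7. The gap upstream of F54F12.1 held 3 peaks, the strongest of them with a signal of 100.8 at 7193 bp from the start. The calmodulin gene cmd-1 had 2 peaks, with signals of 99.6 and 72.1, at 4774 and 5819 bp. After these came sro-1 (99.4), a gene for a 7-transmembrane receptor, and mtm-3 (91.8), a myotubularin phosphatase gene. srab-24 (86.1), a chemoreceptor gene, had its peak 10694 bp from its start, and cam-1 (85.6), the Ror-type Wnt receptor gene, at 1576 bp. Among the 25 strongest were also the zinc finger homeobox gene zfh-2 (83.1), the nuclear receptor gene nhr-258 (82.6), egl-3 (82.5), whose proprotein convertase matures neuropeptides, unc-104 (80.6), which encodes the kinesin of synaptic vesicle precursors, and the lipid kinase gene ppk-2 (79.4).

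Signal values of the 563 peaks ran from 28.2 to 142 with a median of 40.3, where the whole list had a median of 41.8. The peaks were thus of middling strength, with 2 among the 20 strongest of the list and 19 among the 100 strongest. Of the 563, 259 (46%) exceeded the list median, against 189 of 361 autosomal intronic peaks over 500 bp from starts (52.4%, adjusted exact p = 0.103), 121 of 222 X-chromosome peaks between genes (54.5%, adjusted exact p = 0.0979) and 273 of 555 autosomal peaks within 500 bp of a start (49.2%, adjusted exact p = 0.309). These are exact two-sided Fisher tests, Benjamini-Hochberg adjusted over the 3 classes, and the peaks are the units of the test, not independent samples. No difference passed the threshold of 0.05. With 67 peaks in exons kept beside the intronic ones, both -7.27 percentage points from peaks inside genes and -8.50 from X-chromosome peaks passed it (adjusted exact p = 0.0490 each). With either replicate's own list, no difference from intronic, X-chromosome or near-start peaks passed.

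**Figure D2:**
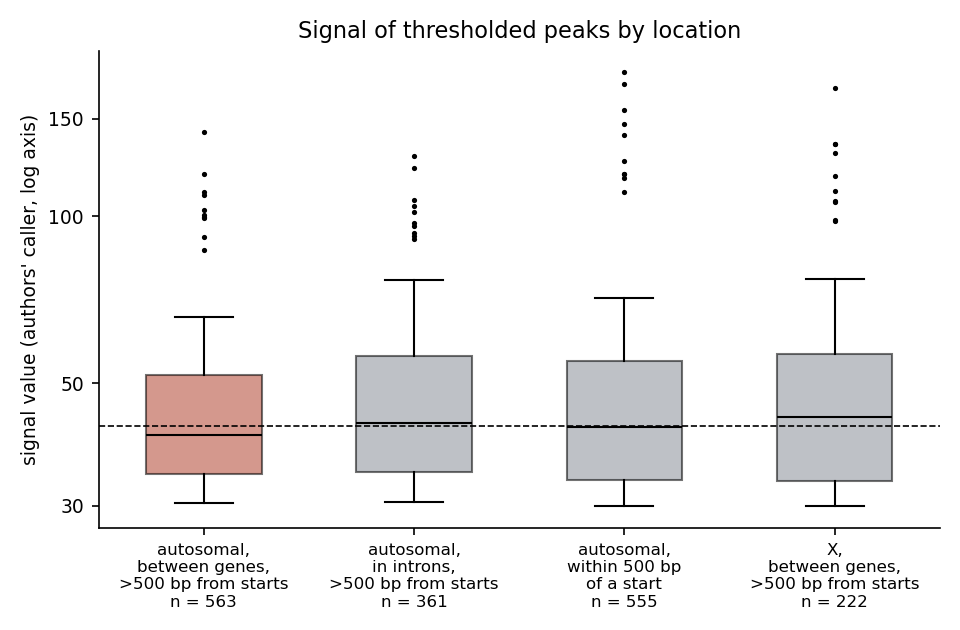
Signal value (log axis) of thresholded peaks in the 4 location classes; boxes span the quartiles, whiskers the 10th to 90th percentiles, dots the 10 strongest peaks of each class, and the dashed line is the median of the whole list (41.8). The autosomal intergenic class has a median of 40.3, against 42.4 for intronic peaks, 41.6 near starts and 43.5 for X-chromosome peaks between genes.

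Nearly every one of the 563 peaks overlapped a region in each replicate's full list: 562 in replicate 1, 560 in replicate 2 and 559 in both. The thresholded list was itself made from both replicates, so this overlap is not independent support for the peaks. Counting as many of the strongest regions of each replicate as the thresholded list holds, 335 peaks (59.5%) were found in both, 128 in replicate 1 alone, 86 in replicate 2 alone and 14 in neither. The share found in both was 64.8% for autosomal intronic peaks (adjusted exact p = 0.333), 63.1% for X-chromosome peaks between genes (adjusted exact p = 0.560) and 57.8% for peaks near starts (adjusted exact p = 0.585, exact two-sided Fisher tests). Signal values had a median of 25.6 in replicate 1 (8.64 to 86.3) and 17.3 in replicate 2 (3.78 to 63.1), and over the 559 peaks their Spearman correlation was 0.252, given as a description across peaks chosen for passing the threshold. The lowest rank of a peak in replicate 2 was 27251. A peak upstream of K05C4.9 on chromosome I was an example of disagreement, with a signal of 14.9 and rank 2607 in replicate 1 and of 63.1 and rank 9 in replicate 2. It was singled out after its values were seen.

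The summits lay 507 to 11644 bp from the nearest protein-coding start, with a median of 2090 bp. Between 500 and 1000 bp there were 101 peaks (17.9%), between 1 and 2 kb 173 (30.7%), between 2 and 5 kb 214 (38.01%), and 75 (13.3%) lay farther than 5 kb. The farthest were near F57B1.6 on chromosome V (11644 bp, signal 43.5), Y37A1B.7 on chromosome IV (10869 bp, signal 39.4) and srab-24. For 476 peaks the nearest start faced them and for 87 the summit lay downstream of the nearest gene. Just inside the limit of 500 bp were peaks at grk-2 (507 bp, signal 60.2) and sin-3 (512 bp, signal 30.4). Just outside it were F27B10.1 (499 bp, signal 31.6) and nrsn-1 (494 bp, signal 68.2).

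The 563 peaks fell into 456 gaps, of which 372 held 1 peak, 62 held 2, 21 held 3 and 1 held 4. The gap with 4 (chrIV:10394959-10404007) lies between R10H10.4 and gpa-7, a G protein alpha subunit gene, and its peaks had signals of 51.4, 48.9, 41.1 and 35.9. Peak widths were 364 bp for 559 of the 563, and 14 peaks had another thresholded summit closer than that.

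Gaps in which no gene starts held few of the peaks. The 563 peaks were set against 6261 weaker regions (signal 6.91 to 28.2, median 9.68). These are the regions among the 30000 of the authors' pooled list that met the same location rule and overlapped no thresholded peak. The authors label the pooled list as peaks and background. The weaker regions can thus include background, and comparisons with them are not of strong with weak binding alone. Only 18 of the 563 peaks (3.20%) lay in convergent gaps, against 683 of the weaker regions (10.9%, adjusted exact p = 2.9e-10, exact two-sided Fisher tests adjusted over the 3 gap types). Convergent gaps made up 14.7% of the sequence in which the rule can be met. Divergent gaps held 235 peaks (41.7%), against 33.4% of the weaker regions (adjusted exact p = 0.000141) and 30.98% of that sequence. Tandem gaps held 310 peaks (55.1%) and 55.6% of the weaker regions (adjusted exact p = 0.825). Within tandem gaps, 40.6% of the peaks lay nearer the side with the start, against 41.99% of the weaker regions (adjusted exact p = 0.674), so no lean towards the start was detected there.

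The difference at convergent gaps kept its direction and passed the test under every alternative run. The divergent excess of 8.30 percentage points was 4.04 without replicate 1 (adjusted exact p = 0.0900) and 4.78 among the stronger 50% of the peaks (adjusted exact p = 0.184), and with windows less than 10% masked it was 6.76 (adjusted exact p = 0.124). Besides the sls-2.1 peak, the strongest peaks in convergent gaps lay near nlp-40 (signal 83.0), a gene for a neuropeptide-like protein, and ddx-23 (68.3), a gene for an RNA helicase of the spliceosome.

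The 5 autosomes of the worm have gene-dense centres and arms richer in repeats. In the middle 50% of their chromosome lay 372 of the 563 peaks (66.1%), against 3278 of the 6261 weaker regions (52.4%, exact p = 3.1e-10, exact two-sided Fisher test) and 47.3% of the sequence in which the rule can be met. The share was higher for the peaks on 4 of the 5 chromosomes: 65.1% against 53.9% on I, 67.6% against 57.9% on II, 68.3% against 42.9% on IV and 72.3% against 53.9% on V. On chromosome III it was 54.5% for the peaks and 57.3% for the weaker regions. The count of peaks per Mb of that sequence was highest on I (31.4) and III (29.9), followed by II (24.8), IV (20.7) and V (20.4).

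Repeats were scarcer at the peaks. Soft-masking, the lower-case marking of repeated or low-complexity sequence in the RefSeq genome, covered 50% or more of the 101-bp summit window at 80 peaks (14.2%), against 35.7% of the weaker regions (adjusted exact p = 2.2e-27, exact two-sided Fisher test over 4 comparisons added after values were seen). On average it covered 24.9% of the window at the peaks and 39.96% at the weaker regions. The G+C content of the window averaged 42.6 ± 8.37% at the peaks and 34.6 ± 9.69% at the weaker regions (SD over windows).

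**Figure D3:**
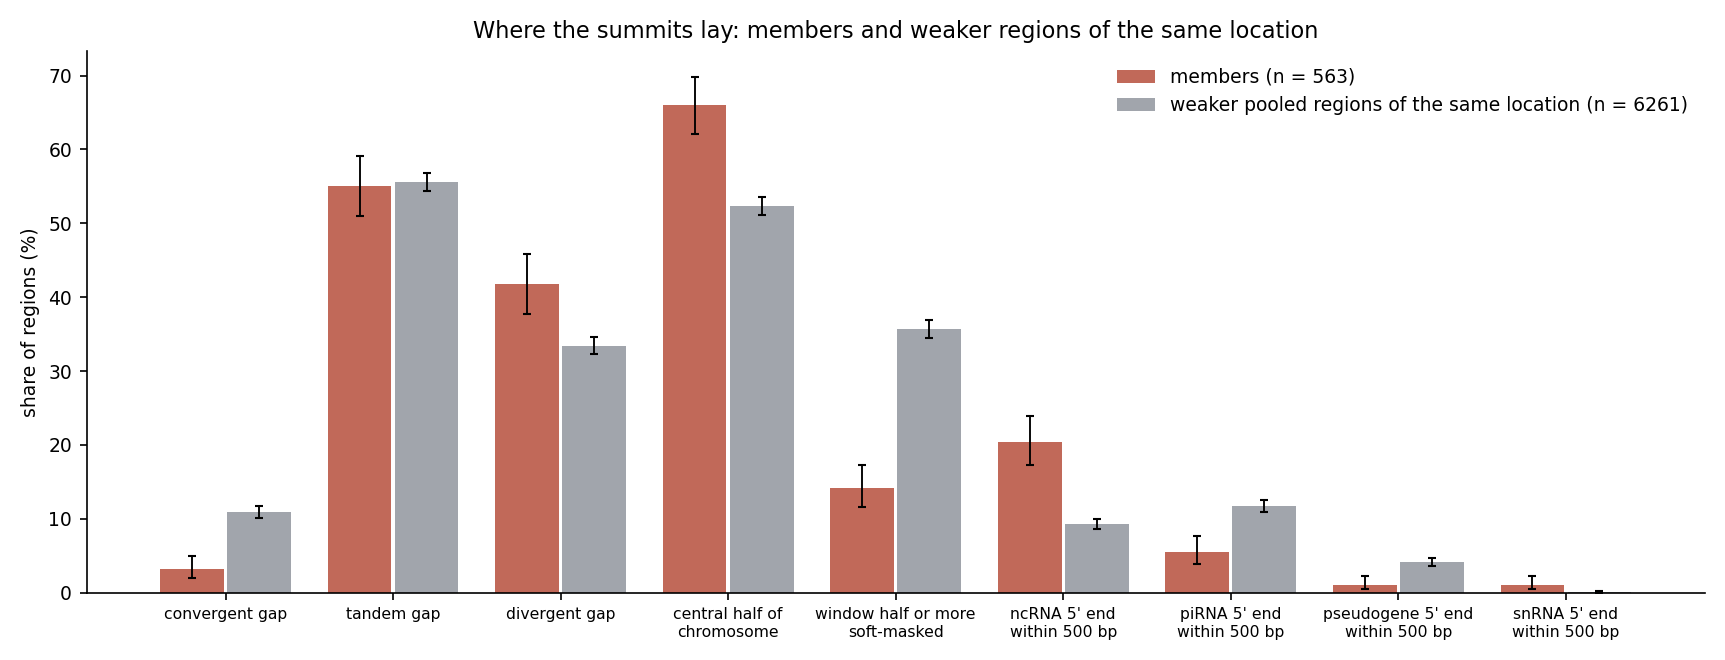
Share of summits with each feature among the 563 autosomal intergenic peaks (red, left of each pair) and the 6261 weaker pooled regions of the same location (grey), in percent; error bars are Wilson 95% intervals, which cover counting error only. Convergent gaps, masked windows, piRNA genes and pseudogenes are less frequent at the peaks; divergent gaps, chromosome centres, ncRNA genes and snRNA genes are more frequent.

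The location rule used protein-coding genes alone, so other gene classes could still be near. A 5′ end of a tRNA, snRNA, snoRNA, miRNA or rRNA gene lay within 500 bp of 15 peaks (2.66%), against 101 weaker regions (1.61%, exact p = 0.0852, exact two-sided Fisher test). With a single replicate's list the difference of 1.05 percentage points was 1.62 (exact p = 0.00719, replicate 2) or 2.36 (exact p = 0.000360, replicate 1), and over 1000 bp from starts it was -0.286 (exact p = 0.844). Beside the SL2 genes, the 10 strongest of these peaks included those at the snoRNA gene W06H8.17 (signal 61.6), the microRNA genes cel-mir-8209 (56.6) and cel-mir-52 (44.8), the snoRNA genes M7.15 (41.4) and Y17G7B.25 (40.6), and a tRNA gene upstream of nfm-1 (40.5), 22 bp away.

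Taken 1 gene class at a time, a table added after values were seen, 4 of 10 classes differed from the weaker regions (exact two-sided Fisher tests adjusted over 10). The annotation's class "ncRNA", unclassified noncoding transcripts, was near 115 peaks (20.4%), against 9.30% of the weaker regions (adjusted exact p = 3.8e-13), with 24.2% against 6.43% on chromosome IV and 19.4% against 10.3% on the other autosomes. Small nuclear RNA genes were near 6 peaks (1.07%) and 5 weaker regions (0.0799%, adjusted exact p = 0.000248). 4 of those 6 peaks lay at the SL2 genes described above, 2 of them at the same gene. Genes of piRNAs, the small RNAs that silence foreign transcripts in the germline, were near 31 peaks (5.51%), against 11.8% of the weaker regions (adjusted exact p = 6.7e-06). On chromosome IV, which carries the large piRNA clusters, they were near 29 of 120 peaks (24.2%) and 43.4% of the weaker regions. Pseudogenes were near 6 peaks (1.07%), against 4.14% (adjusted exact p = 0.000180). With windows of 38 to 48% G+C alone, the piRNA shares were 4.68% and 4.92% (unadjusted exact p = 1), the ncRNA shares 22.98% and 14.5% (unadjusted exact p = 0.00179), the pseudogene shares 1.70% and 4.11% (unadjusted exact p = 0.0921) and the snRNA shares 0.426% and 0.220% (unadjusted exact p = 0.472). The piRNA, pseudogene and snRNA differences did not pass there. With windows less than 10% masked the piRNA difference did not pass either, at 4.76% and 5.95% (unadjusted exact p = 0.615). Under that limit the ncRNA shares were 25.9% and 15.8% (unadjusted exact p = 0.00116). The pseudogene shares were 0.529% and 5.87% (unadjusted exact p = 0.000513), and the snRNA shares 3.17% and 0.175% (unadjusted exact p = 0.000167).

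Genes of the pan-neuronal and synaptic list were prominent among the nearest genes, while neuropeptide and chemoreceptor genes were not. Of the 17242 autosomal protein-coding genes, 505 (2.93%) had the nearest start to one of the 563 peaks, and of the 3966 genes whose start was nearest to any pooled region of this location they made up 12.7%. Among the 32 autosomal genes of the pan-neuronal and synaptic list 15 were nearest to a peak (46.9%), which is 57.7% of the 26 reached by any region of the location. This list held genes named in an earlier account of these data. Without those, 12 of 28 (42.9%) were nearest to a peak, and 52.2% of the 23 reached. Lists were counted and not tested, and a gene with a long gap before it has more sequence in which a summit can fall.

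These 15 genes had 16 peaks, with signals of 29.7 to 82.5 and a median of 49.2. All 16 lay upstream of the gene. Of all 563 peaks 476 lay upstream of their nearest gene, so this position is not particular to the list. The peak at egl-3 (chrV:10174691-10175054) had a signal of 43.7 in replicate 1 and 42.7 in replicate 2, and the one at unc-104 (chrII:6992918-6993281) 51.7 and 34.1. At the beta-spectrin gene unc-70 (chrV:6879586-6879949) the values were 25.3 and 36.1. unc-13, whose product primes synaptic vesicles, had 2 peaks, with signals of 57.1 and 29.7, at 4641 and 1373 bp. Others served vesicle release or recycling, such as unc-64 (syntaxin, 48.8), unc-31 (CAPS, 47.8), unc-57 (endophilin, 46.8) and unc-11 (a clathrin adaptor, 55.4), or the cytoskeleton of axons, such as unc-44 (ankyrin, 30.9) and unc-33 (CRMP, 32). Of the 16 peaks, 15 were among the strongest regions of both replicates, counted as above. With the list of replicate 2 alone 16 of the 32 genes were nearest to a peak, with that of replicate 1 alone 18, and with the stronger 50% of the peaks 12. With windows of 38 to 48% G+C alone it was 4 of the 32 genes, or 30.8% of 13 reached, where the background was 17.4%. With windows less than 10% masked it was 6 of the 32, or 50% of 12 reached, where the background was 16.1%.

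Other lists of signalling and nervous system genes stood on either side of the background of 12.7% of reached genes. Neuropeptide genes counted 3 of 73 (4.11%, or 9.68% of the 31 reached), which were nlp-40, flp-22 and pdf-1. Of the genes for ion channels and transmitter receptors, 21 of 208 were nearest to a peak (10.1%, or 22.6% of the 93 reached), led by npr-32 (signal 66.0), a neuropeptide receptor gene, lgc-26 (65.8), a ligand-gated channel gene, and trp-2 (62.8), a TRP channel gene. For the G protein signalling list the count was 9 of 64 (14.1%, or 31.03% of 29), led by egl-10 (78.6), whose RGS protein turns off Go signalling. With replicate 2 left out it was 6 of 64. The list is broad: its 9 genes include the kinase genes kin-15 and kin-19, and kin-19 is counted among the Wnt genes as well. Axon guidance genes counted 6 of 31 (19.4%, or 35.3% of 17), among them efn-2 (54.3), an ephrin gene, and clr-1 (53.5), a receptor phosphatase gene. With replicate 1 left out, 3 of the 31 were nearest to a peak. Wnt genes counted 4 of 27 (14.8%, or 23.5% of 17), led by cam-1, with mom-5 (35.3), a Frizzled receptor gene, and kin-19 (30.8), the casein kinase 1 alpha gene. With replicate 1 left out the Wnt count was 2 of 27, and with the stronger 50% of the peaks it was 1.

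Chemoreceptor and F-box genes, families expanded in worms, were rarely nearest. Of 1275 autosomal chemoreceptor genes 7 were nearest to a peak (0.549%, or 2.40% of the 292 reached), and of 305 F-box genes none was, out of 49 reached. Nuclear hormone receptor genes counted 6 of 248 (2.42%, or 9.52% of 63), and genes of the homeobox list 2 of 76 (ceh-48 and cog-1, 6.45% of 31). The homeobox list left out zfh-2, named above among the strongest peaks, so its count is not one of all homeobox genes. Cuticle collagens, with 5 of 146 (12.5% of 40) and dpy-10 (65.8) the strongest, and C-type lectins, with 4 of 237 (13.3% of 30), were near the background. Ribosomal protein genes counted 3 of 81 (27.3% of the 11 reached) and respiratory chain genes 3 of 65 (42.9% of the 7 reached), shares above the background that rest on few genes. No forkhead gene of 11 (6 reached) and no translation factor gene of 42 (2 reached) was nearest to a peak. So few were reached that these counts cannot be told from the background. 4 genes had 3 peaks each: C46F11.6, F21D12.3, R01H2.7 and cup-2.

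**Figure D4:**
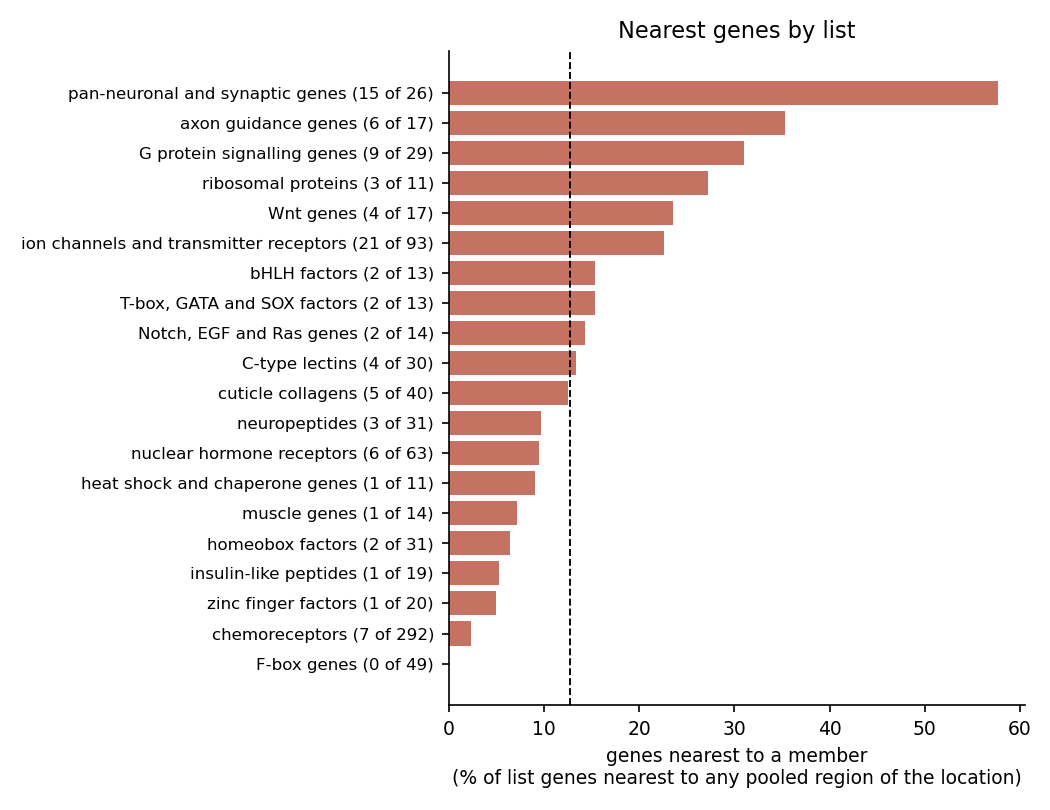
Share of list genes nearest to one of the 563 peaks, in percent of the list genes nearest to any pooled region of the location, for lists with 10 or more such genes; counts stand in parentheses and the dashed line marks the share over all such genes (12.7%). The pan-neuronal and synaptic list has the longest bar (57.7%), and chemoreceptors (2.40%) and F-box genes (0) the shortest.

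The forkhead core was not commoner at the summits than beside them. The search covered the form GTAAACA, its variant GTAAATA, the variant ATAAACA and the variant ATAAATA, on either strand and within 50 bp of the summit. At least 1 of these 4 forms was found at 37 peaks (6.57%), against 58 of the windows of the same width 500 bp towards higher coordinates (10.3%, exact two-sided McNemar test, p = 0.0295) and 708 of the weaker regions (11.3%, exact two-sided Fisher test, p = 0.000309). Of all 30000 pooled regions 9.39% held one. The forms are rich in A and T, and G+C averaged 42.6% at the summits, 33.2% in the shifted windows and 34.6% at the weaker regions. With windows of 38 to 48% G+C alone the difference from the weaker regions was 0.00594 percentage points (exact p = 1). The form least rich in A and T, GTAAACA, was at 9 summits (1.60%), 8 shifted windows (1.42%, exact McNemar p = 1) and 84 weaker regions (1.34%, exact Fisher p = 0.569). The share among all pooled regions was 1.17%. Besides akt-1 (signal 44.6) and F42G4.5 (55.8), shown above, the 9 peaks included those upstream of clr-1 (53.5), taf-12 (49.5) and the gap between R10H10.4 and gpa-7 (41.1). That a form is absent from a window says nothing about binding there.

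All strand-merged 7-mers were compared in the same windows, with adjustment over all of them. Against the shifted windows 205 were more frequent at the summits (2.5%) and 177 less frequent (2.16%). Against the weaker regions 507 were more frequent (6.19%) and 287 less frequent (3.5%), and 191 and 154 were called in the same direction in both tables. Tracts of purines led. CTCTCTC was at 91 summits (16.2%), against 1.24% of the shifted windows (adjusted exact p = 9.7e-18, exact McNemar test) and 2.86% of the weaker regions (adjusted exact p = 1.6e-30, exact Fisher test). AGAGAGA was at 17.6% of the summits, against 1.60% and 3.51%, and AAGAAGA at 16.2%, against 2.13% and 5.05%. Of the 128 7-mers that hold purines alone on 1 strand, 97 were more frequent than at the weaker regions and 1 was less frequent, while of the 64 made of A and T alone 60 were less frequent.

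GAGACGC, which is not made of purines alone on either strand, was also more frequent at the summits. It was at 61 summits (10.8%), 5 shifted windows (0.888%) and 91 weaker regions (1.45%, adjusted exact p = 9.1e-25), and its overlapping neighbours AGACGCA and CTGCGTC, at 10.5% each, shared most of its sites. After its 64 sites in the windows the next base was A in 89.1%, the second G in 90.6% and the third A in 76.6%, as in the srab-24 and W06H8.6 windows printed above. Within 60 bp of the summit AGA followed at 49 of 71 sites (69.01%), and at 69 of 111 sites in the weaker regions (62.2%), so the extension was not confined to the peaks. Both GAGACGC and CTCTCTC were present at 22 peaks.

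Among the peak classes, GAGACGC was at 10.8% of the autosomal intergenic summits, against 3.15% of X-chromosome peaks between genes (adjusted exact p = 0.00296, exact two-sided Fisher tests adjusted over 18), 6.37% of autosomal intronic peaks (adjusted exact p = 0.0653) and 10.5% of peaks near starts (adjusted exact p = 0.897). CTCTCTC, at 16.2%, was less frequent in peaks near starts (9.55%, adjusted exact p = 0.00449) and in X-chromosome peaks between genes (9.01%, adjusted exact p = 0.0266), and stood at 12.5% of intronic peaks (adjusted exact p = 0.210). AAGAAGA, at 16.2%, was more frequent than in peaks near starts (9.01%, adjusted exact p = 0.00296) and less frequent than in intronic peaks (24.9%, adjusted exact p = 0.00449), and stood at 15.8% of X-chromosome peaks (adjusted exact p = 1).

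**Figure D5:**
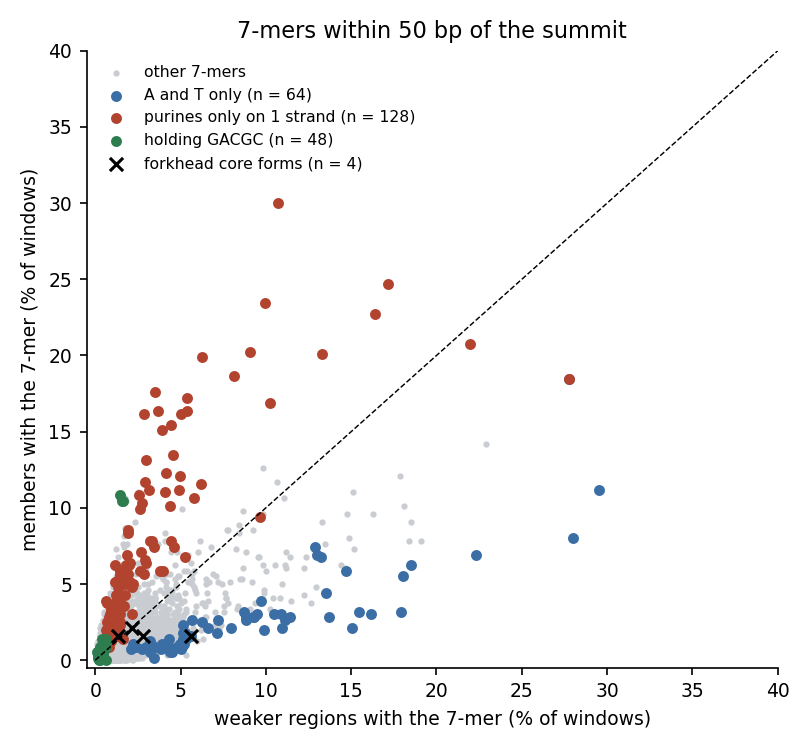
Each point is 1 of all strand-merged 7-mers: the percentage of weaker regions (horizontal) and of the 563 autosomal intergenic peaks (vertical) that hold it within 50 bp of the summit, with the dashed line where both are equal. Purine 7-mers (red; the 7-mer of A alone is drawn here) lie mostly above the line, A and T 7-mers (blue) below it, and 3 of those holding GACGC (green) near 10% of peaks and under 2% of weaker regions.

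Masking and base composition differ between the peaks and the weaker regions, and 59.4% of the 64 GAGACGC sites and 65.6% of the 212 CTCTCTC sites at the summits touched soft-masked bases. With windows of 38 to 48% G+C alone, 33 7-mers were more frequent and 0 less frequent at the peaks (Fisher tests; 373 and 75 at an unadjusted p under 0.05), GAGACGC (12.3% against 2.65%) and CTCTCTC (16.6% against 5.22%) among the 33. With windows less than 10% masked, which leave out most of those sites, 0 passed in either direction (338 and 42 unadjusted). There GAGACGC was at 10 of 189 peaks (5.29%) and 2.36% of the weaker regions (unadjusted exact p = 0.0313), and CTCTCTC at 11.1% and 4.29% (unadjusted exact p = 0.000568).

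GAGACGC was unevenly spread along the chromosomes. In the outer 25% on either side of a chromosome it was at 37 of 191 summits (19.4%), and in the middle 50% at 24 of 372 (6.45%, adjusted exact p = 2.5e-05, exact two-sided Fisher tests adjusted over 8). The outer share was the higher one on each of the 5 chromosomes, from 11.4% against 6.85% on II to 28.9% against 3.66% on IV. For CTCTCTC the shares were 24.1% in the outer parts and 12.1% in the middle (adjusted exact p = 0.00109). At the weaker regions GAGACGC was at 1.58% and 1.34% (adjusted exact p = 0.662) and CTCTCTC at 2.95% and 2.78% (adjusted exact p = 0.742). Whether the peaks and the weaker regions differ in this contrast was not tested. With the list of replicate 2 alone the GAGACGC shares were 12.4% and 5.57% (unadjusted exact p = 0.00707), and with that of replicate 1 alone 19.9% and 4.95% (unadjusted exact p = 2.5e-07). With windows of 38 to 48% G+C alone the GAGACGC shares were 19.8% and 8.44% (unadjusted exact p = 0.0202), while the CTCTCTC shares, 22.2% and 13.6%, no longer passed the threshold (unadjusted exact p = 0.1000). With windows less than 10% masked the GAGACGC shares were 11.3% and 2.94% (unadjusted exact p = 0.0306), and the CTCTCTC shares, 13.2% and 10.3%, did not pass (unadjusted exact p = 0.609).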

How the data were processed

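Chromatin from 2 samples of L3 larvae was sheared by sonication, per the labels. The authors deposited, for ce11, a list of 30000 regions for each replicate, a pooled list of the same size and a thresholded list, each with a signal value per region made by the authors' peak caller. How reads were aligned, which caller and control were used and how the signal was scaled is not given in the sources used here. Counts are absent from the lists, so depth is unknown and intervals cover counting error over peaks only. The same regions on ce10 were not used.

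Summits were read from the deposited lists and placed against Ensembl release 115 genes. Sequence came from the RefSeq WBcel235 assembly, whose chromosome names map to ce11 and whose lengths hold every region. Shares were compared by exact two-sided Fisher tests and paired windows by exact McNemar tests (scipy 1.17.1), with Benjamini-Hochberg adjustment (statsmodels 0.14.6) and a threshold of 0.05. Windows were 101 bp wide, and the test over strand-merged 7-mers was first tested on simulated data. All simulated windows had the same base composition, so the simulation did not cover the differences in G+C and masking between the real windows. Intronic peaks are those inside a protein-coding gene but in none of its exons. Nothing in the labels says whether the replicates came from separate cultures. The named genes are the 25 strongest peaks, the 10 strongest at small noncoding RNA genes, the 3 strongest of each gene list, the 3 farthest from starts, the peaks nearest to the 500 bp limit, the 7-mers with the smallest p and any gap with 4 peaks; others were named after their values were seen. The members and lists were chosen with earlier results of these data known. Alternatives were either replicate's own strongest regions, as many as the thresholded list holds, a limit of 1000 bp, all annotated genes in the location rule, the stronger 50% of the peaks, 1 peak per gap, other windows, and, chosen after seeing the data, keeping exonic peaks with the intronic ones and limits on G+C and on masking.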

Additional observations from a re-analysis of the deposited data

How the results depend on the processing

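No paired analysis was possible because the series holds 1 group of 2 samples. Differences are in percentage points, the autosomal intergenic peaks minus what they were set against. Of 164 values under alternatives, 111 were classed as unchanged, by 2 rules. A difference with a p was unchanged if it did not reverse and kept its side of the threshold. A count without a p was unchanged if it stayed within a fixed ratio of the main count. The convergent-gap and chromosome-centre differences kept their direction and side of the threshold in every alternative run for them. The cause of the changes below was not tested. Several settings held fewer peaks than the main 563. There were 545 without replicate 1, 540 without replicate 2, 462 over 1000 bp from starts and 456 with 1 peak per gap. All annotated genes in the rule left 399, the stronger 50% of the peaks 259, the G+C limits 235 and the masking limit 189.

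With 1 replicate's own list, leaving out each replicate in turn, ranges were as follows. The signal difference was -2.79 to -1.57 from intronic peaks, -4.59 to 2.21 from peaks near starts and -6.64 to 1.15 from X-chromosome peaks. It was 1.62 to 2.36 for small noncoding genes, -4.71 to 3.20 for tandem gaps and 4.04 to 11.3 for divergent gaps. The forkhead core differed by -4.04 to -3.33 from shifted windows (exact p = 0.0505 without replicate 2), and GTAAACA by -0.183 to 0.741 from shifted windows and -0.328 to -0.173 from weaker regions. The 7-mers less frequent than in shifted windows numbered 116 to 145, against 177.

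Over 1000 bp from starts, small noncoding genes differed by -0.286, tandem gaps by 1.26, the forkhead core by -2.81 from shifted windows, and 115 7-mers were less frequent than in them. With all annotated genes in the rule, replicate support differed from peaks near starts by -1.06, tandem gaps by 0.484, and the 7-mer counts were 106 and 83 against shifted windows and 307 and 152 against weaker regions. With the stronger 50% of the peaks there were 259 members nearest to 246 genes. Tandem gaps differed by 3.07, divergent gaps 4.78, the forkhead core -3.09 from shifted windows and -3.20 from weaker regions, and the 7-mer counts 58 and 38, and 238 and 97. With 1 peak per gap, signal differed by -11.3 (X, adjusted exact p = 0.0369) and 0.811 (near starts), and GTAAACA by -0.0435 from weaker regions. A 200-bp limit gave 0.996 for small noncoding genes (exact p = 0.0458). Control windows without genes or summits gave -3.45 for the forkhead core (exact p = 0.0535). Windows of 100 bp on either side gave 462 and 385 7-mers, and 854 and 590.

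With exonic peaks kept, the signal differences were -7.27 (peaks inside genes) and -8.50 (X). With 38 to 48% G+C the forkhead core differed from weaker regions by 0.00594, and 33 7-mers were more and 0 less frequent. With under 10% masked, small noncoding genes differed by 3.28 (exact p = 0.0320), tandem gaps by 1.45, divergent gaps by 6.76 (adjusted exact p = 0.124), the forkhead core by -2.68 and GTAAACA by -0.343, and 0 and 0 7-mers passed.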
